A study of Arabidopsis thaliana with 12 samples.

Results

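Regenerating root stumps collected 16 h after the tip was cut off were compared with uncut roots of Arabidopsis thaliana by ATAC-seq, an assay in which a transposase cuts and tags DNA that nucleosomes leave accessible. Members of the comparison were all regions that the count files of both groups share: 107842 of the 156035 regions counted anywhere in the series, in 6 of its 12 samples. The 16 h group was 3 libraries of sorted cells from a line carrying MP::MP-GFP, a fusion of MP to green fluorescent protein under the MP promoter. About 130 µm of the tip was removed at 7 DAS, about 200 µm above the cut was collected at 16 h, and GFP-positive protoplasts were sorted to 1000 nuclei in replicates 1 and 2 and 2000 in replicate 3. The uncut group was 3 libraries of Col-0 roots of the same age, from root pieces of a matching size, with 50000 DAPI-stained nuclei each. Excision, plant line, the preparation (protoplasts or DAPI-stained nuclei), the GFP sort and the number of nuclei therefore changed together between the groups. Their parts cannot be told apart. Nothing in the labels ties the replicates to separate plants or batches, so p-values measure the spread between these samples, which may be technical.

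A root that loses its tip rebuilds the stem cell niche within days from cells just above the cut. Wounding is known to raise jasmonate and ethylene signalling, while auxin and cytokinin mark opposed domains of the new tip. MP (MONOPTEROS, ARF5) is an auxin response factor of vascular and embryonic root development. Open promoters are usually those that can be transcribed, but accessibility is not expression, and none was measured here. In such bulk samples, fewer cells with an open region and less opening per cell cannot be told apart.

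The 16 h libraries held 1688980, 2350249 and 1437740 reads in these regions, and the uncut libraries 31775572, 25344796 and 22464012. Between 4.14% and 6.13% of regions had no read in a 16 h library, against at most 0.0204% in an uncut one. A count of 0 allows up to 1.32 to 1.98 CPM (read counts scaled to the library total) in a 16 h library and 0.0979 to 0.133 CPM in an uncut one, counting error only. Spearman correlations across regions were 0.483 to 0.513 between 16 h replicates and 0.937 to 0.957 between uncut replicates. The 16 h replicate 2 stood apart: its top 100 regions took 7.47% of reads, against 5.09% and 4.94% in the other 16 h libraries.

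Read counts at 16 h were lower in blocks on chromosomes 1, 2 and 4 and differed mostly in scattered single regions on chromosomes 3 and 5. Whether lower counts reflect a change of accessibility after excision was not tested, since the plant line also differed between the groups. Of 107749 regions tested, 3310 were higher at 16 h (3.07%) and 7100 were lower (6.59%) by the quasi-likelihood test of edgeR with Benjamini-Hochberg adjustment, at a threshold of 0.05. The share of regions that were higher lay between 2.80% and 3.33% on each of the 5 chromosomes. The share that were lower was 7.84% on chromosome 1, 10.8% on chromosome 2 and 11% on chromosome 4, but 3.4% on chromosome 3 and 1.94% on chromosome 5. On chromosomes 3 and 5 together, 1355 of 45916 regions were higher (2.95%) and 1206 were lower (2.63%). The counts moved with single libraries: without 1 uncut library, 766 to 817 regions were higher and 2543 to 2906 lower over all chromosomes, and 296 to 316 higher and 113 to 198 lower on chromosomes 3 and 5. Without 1 library at 16 h, 4834 to 5710 were higher and 8400 to 8729 lower over all chromosomes, and 2080 to 2402 higher and 1823 to 1938 lower on chromosomes 3 and 5.

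**Figure D1:**
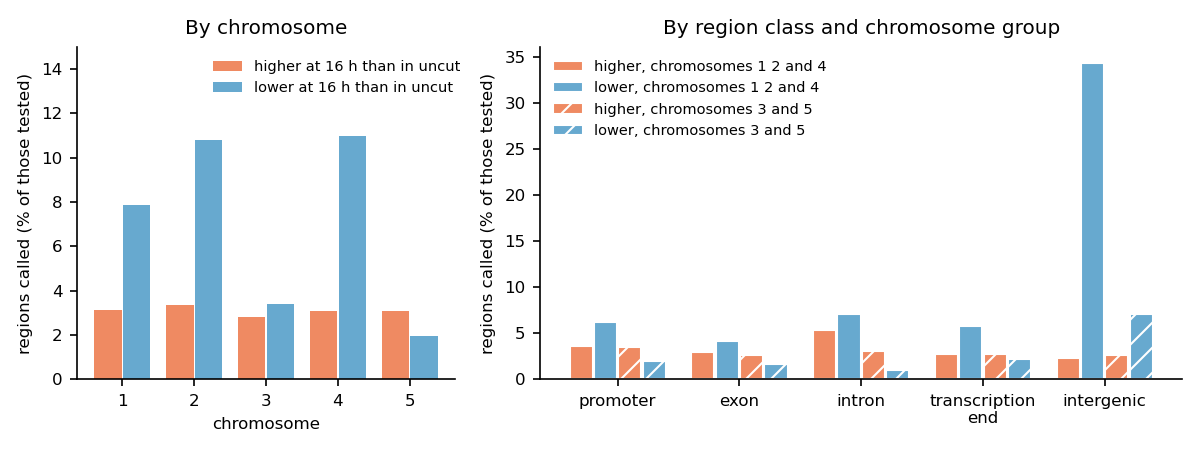
Share of tested regions that were higher or lower at 16 h than in uncut roots, in percent, by chromosome (left) and by region class on chromosomes 3 and 5 and on chromosomes 1, 2 and 4 (right). The higher shares are level across chromosomes, while the lower shares reach 11% on chromosome 4 and 34.4% in intergenic regions of chromosomes 1, 2 and 4.

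Lower regions were more frequent between genes than in the other classes of region. Intergenic regions made up 52.5% of all lower regions, 54.7% of those on chromosomes 1, 2 and 4, and 41.5% of those on chromosomes 3 and 5. Of intergenic regions, 22.6% were lower: 34.4% of those on chromosomes 1, 2 and 4, and 7.09% of those on chromosomes 3 and 5. In promoters, 3.56% of regions were higher and 4.40% lower, in exons 2.84% and 3.06%, in introns 4.44% and 4.65%, and at transcription ends 2.73% and 4.27%. More than 5 kb from a transcription start, 26.1% of regions were lower. Across libraries, intergenic regions took 11 ± 0.876% of reads at 16 h and 14.4 ± 0.859% in uncut roots (SD, n = 3 each). The groups did not overlap in this share (difference -3.39 percentage points), and the two-sided exact permutation p of 0.1 is the smallest that 3 against 3 allows.

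On chromosomes 3 and 5 the lower regions kept a measurable level, and on the other chromosomes many had none. Of the 7100 lower regions, 2379 had no read in any 16 h library, 2367 of them on chromosomes 1, 2 and 4 and 12 on chromosomes 3 and 5. The median log2 fold change of lower regions was -4.12 on chromosomes 1, 2 and 4, or -2.97 with the regions without a read set at the floor of 3 counts over the 3 libraries. On chromosomes 3 and 5 it was -1.47, with median levels of 5.97 CPM at 16 h and 16.2 CPM in uncut roots. Higher regions had a median log2 fold change of 1.46 and median levels of 10.8 CPM at 16 h and 3.84 CPM in uncut roots. Region width went with the direction of the calls. Among the 25% of regions that were narrowest, 6.68% were higher and 4.5% lower, and among the widest 25% 0.978% were higher and 10.9% lower.

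Many lower regions on chromosomes 1, 2 and 4 sat next to each other. Those with no lower neighbour numbered 1925 of 5894 there, 981 of 1206 on chromosomes 3 and 5, and 2906 of 7100 in all. Runs of at least 5 consecutive regions, all lower, numbered 268 and held 2549 regions, or 35.9% of those lower. Of these runs, 266 lay on chromosomes 1, 2 and 4 and held 43.1% of the lower regions there, while 2 lay on chromosomes 3 and 5 and held 0.912% of theirs. The longest had 45 regions, from 1670868 to 1749727 on chromosome 4 (TAIR10, the build of the submitters' processing notes), and 36 of the 45 had no read at 16 h. Next came 41 regions from 4477819 to 4519199 on chromosome 2 and 39 from 1612685 to 1667293 on chromosome 4. In windows of 1 Mb, more than 20% of regions were lower in 4 windows of chromosome 1, 5 of chromosome 2 and 5 of chromosome 4, and in none of chromosomes 3 and 5. The highest shares were 44.4% at 4 to 5 Mb of chromosome 2, 43.0% at 3 to 4 Mb of chromosome 4 and 42.5% at 15 to 16 Mb of chromosome 1. The highest on chromosomes 3 and 5 were 13.9% and 4.75%, both at 13 to 14 Mb.

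Summed per gene by the nearest transcription start, 983 of 28933 genes were higher at 16 h (3.4%) and 1762 were lower (6.09%), and the median log2 fold change of all genes was 0.03. On chromosomes 3 and 5, 413 of 12301 genes were higher (3.36%) and 397 lower (3.23%). Of the lower genes, 126 had no read in any 16 h library, all of them on chromosomes 1, 2 and 4, and 371 (21.1%) held a region of a lower run. The counts depended on single libraries. They were 89 higher and 573 lower without uncut replicate 1, 103 and 636 without uncut replicate 2, and 110 and 696 without uncut replicate 3. Without 16 h replicate 1, 2 or 3 they were 1529 and 2177, 1995 and 2831, and 1989 and 2425. For chromosomes 3 and 5 they were 34 to 40 higher and 44 to 69 lower without 1 uncut library, and 665 to 888 higher and 560 to 821 lower without 1 library at 16 h. In all 6 such fits 81 of the higher genes and 556 of the lower genes kept their call, and of these 31 and 42 lay on chromosomes 3 and 5.

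The genes with the largest decreases in counts had no read at 16 h in any library. AT1G44478, annotated as a cyclophilin, had no read in the 3 libraries at 16 h, against 169, 154 and 143 CPM in uncut roots, and was at least 278-fold lower with the 16 h group at its floor of 0.558 CPM. Its regions included 8 that were lower. AT2G05045, AT4G04675, AT1G34042, AT1G32000, AT1G36325, AT2G11015 and AT2G05565 also had no read at 16 h and were between at least 104-fold and at least 191-fold lower. All 8 lie on chromosomes 1, 2 or 4. Similar near-absence was found at named coding genes. AT4G19520, a TIR-NBS-LRR immune receptor, had 1.19, 0 and 0 CPM at 16 h, against 76.5, 79.7 and 78.8 CPM in uncut roots, with 12 of its regions lower. RLP3, a receptor-like protein, had no read at 16 h, against 19.8, 19.3 and 19 CPM in uncut roots, and was at least 34.7-fold lower. CYP705A13, a cytochrome P450, had 1.19, 0 and 0 CPM at 16 h, against 70.3, 73.0 and 73.4 CPM in uncut roots. No library of either group overlapped the other group at these genes.

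The largest decreases in counts on chromosomes 3 and 5 were partial. AT3G07155, a non-coding RNA gene, had 15.5, 15.4 and 9.78 CPM at 16 h, against 93.9, 91.2 and 103 CPM in uncut roots, a log2 fold change of -2.80 ± 0.19 (SE; edgeR adjusted p = 2.04e-05). AT5G10340, an F-box gene and so of a family that picks proteins for degradation, had 609, 826 and 579 CPM at 16 h, against 3316, 2063 and 2131 CPM in uncut roots. The groups were far apart, although uncut replicate 1 exceeded the other uncut libraries (log2 fold change -1.90 ± 0.35, edgeR adjusted p = 0.00962). The other 6 largest, AT3G07675, AT3G46380, AT3G07025 (a tRNA gene), AT3G30230, AT3G45525 and AT5G06645, had log2 fold changes of -2.26 to -1.49.

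Gains were mostly isolated. Of the 3310 higher regions, 2738 had no higher neighbour, and 13 runs of at least 5 held 104 regions (3.14%). The longest had 25 consecutive regions over 10.8 kb, from 8440307 to 8451086 on chromosome 5, across AT5G03815 (a non-coding RNA gene), LSU4 and LSU2, both named for their response to low sulfur, EMB2820, named for an embryo-defective mutant, and AT5G24680. Log2 fold changes within it ran from 1.49 to 9.33 with a median of 3.82, the groups did not overlap in 24 of the 25 regions, and median levels were 45.7 CPM at 16 h and 2.22 CPM in uncut roots. By the definition of a run, the region next to each edge was not called higher. Of the 10 regions on the left, 0 were higher and 1 was lower (median log2 fold change 0.24), and of the 10 on the right none was called (median -0.07).

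Within this stretch, LSU4 had 336, 296 and 367 CPM at 16 h, against 20.8, 15.7 and 17.7 CPM in uncut roots (log2 fold change 4.20 ± 0.20, edgeR adjusted p = 3.57e-06). A region 351 bp before its start had 49.6, 51.6 and 39.0 CPM at 16 h and 0.098, 0 and 0.0888 CPM in uncut roots. EMB2820 had 588, 404 and 625 CPM at 16 h, against 53.2, 56.9 and 61.8 CPM in uncut roots (log2 fold change 3.23 ± 0.24, edgeR adjusted p = 2.74e-05). All libraries at 16 h lay above all uncut libraries at both genes, and at EMB2820 replicate 2 was the lowest at 16 h. In 1 exonic region of EMB2820, at 8449981 to 8449983, the groups overlapped, with 14.8, 0.441 and 18.5 CPM at 16 h and 0.457, 0.724 and 0.977 CPM in uncut roots. LSU2 had 77.3, 80.3 and 79.0 CPM at 16 h, against 19.5, 15 and 15.5 CPM in uncut roots, and AT5G24680 had 94.5, 64.4 and 117 CPM at 16 h, against 26.6, 28.1 and 32.6 CPM. Only 3 of the 25 regions, at LSU2 and EMB2820, were also counted at 14 h in the same sorted line, and none at AT5G03815 or LSU4. The LSU2 region had 86.5, 89.9 and 88.1 CPM at 16 h, 55.7, 54.8 and 71.6 CPM at 14 h, and 19.9, 15.6 and 16.4 CPM in uncut roots, here scaled by all counted reads. The stretch was singled out after its values were seen.

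**Figure D2:**
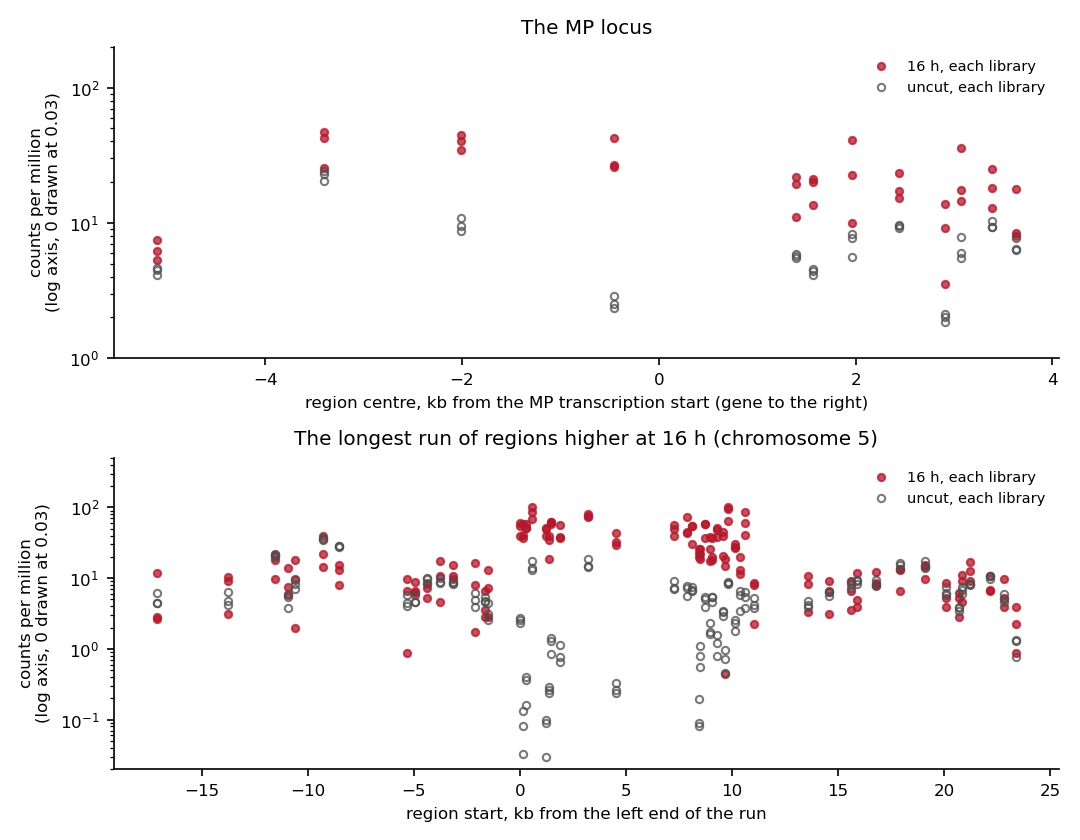
CPM (log axis, 0 drawn at 0.03) of each library at every region of the MP locus, by distance in kb from the MP start (top), and in and around the longest run of higher regions on chromosome 5, by distance in kb from its left end (bottom). Each dot is 1 library, filled for 16 h and open for uncut; at MP all regions are higher in the 16 h libraries, and on chromosome 5 the 25 regions of the run stand above flanks where the groups mix.

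MP was higher at 16 h. It had 318, 228 and 251 CPM at 16 h, against 91.0, 97.2 and 93.2 CPM in uncut roots, a log2 fold change of 1.5 ± 0.18 (SE; edgeR adjusted p = 0.00071). All 3 libraries at 16 h lay above all uncut libraries in each of its 12 regions, and 8 of the 12 were called. The largest change was 459 bp before the start, where the region had 26.8, 42.7 and 25.8 CPM at 16 h and 2.35, 2.49 and 2.89 CPM in uncut roots (log2 fold change 3.64). The 8 lie next to each other, from 6884547 to 6890002 on chromosome 1. Reads of the transgene and of the native gene cannot be told apart in these counts.

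Several of the largest gains were at sequences with close copies in the genome, or differed widely between 16 h libraries. U6-26, a small nuclear RNA gene of the spliceosome on chromosome 3, had 1614, 119 and 1909 CPM at 16 h, against 20.6, 18.9 and 19.8 CPM in uncut roots (log2 fold change 5.94 ± 0.85, edgeR adjusted p = 0.00221). A region at 18787070 to 18787402 on chromosome 5, next to U6-29 in the RefSeq annotation, had 2203, 141 and 2835 CPM at 16 h and 3.27, 2.65 and 4.04 CPM in uncut roots. In both, 16 h replicate 2 was far below the other 16 h libraries and still above every uncut library. U6-29 itself had 4.76, 3.97 and 3.49 CPM at 16 h, against 2.99, 3.16 and 2.71 CPM in uncut roots (edgeR adjusted p = 0.443). On chromosome 2, AT2G07768 had 58.8, 120 and 58.0 CPM at 16 h, against 2.55, 9.82 and 6.05 CPM in uncut roots, and AT2G07739 and AT2G07643 had log2 fold changes of 3.29 and 3.21. These genes lie in the nuclear copy of mitochondrial DNA on chromosome 2, so their counts can include mitochondrial reads and are uncertain. AT3G41762, on chromosome 3, had 651, 851 and 595 CPM at 16 h and 44.6, 52.9 and 44.3 CPM in uncut roots (log2 fold change 3.89).

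Among 479 tested genes of 18 pathway and marker lists, 25 were higher (5.22%) and 17 lower (3.55%) at 16 h, against 3.4% and 6.09% of all genes. Few of these calls held when an uncut library was left out. Of the 25 higher genes, 21, 16 and 23 kept the call without 16 h replicate 1, 2 or 3, and 1, 1 and 2 kept it without uncut replicate 1, 2 or 3. Of the 17 lower genes, 14, 14 and 16 kept it without a 16 h library, and 1, 2 and 2 without an uncut one. JAZ10 and ABI5 alone kept it in all 6. Even so, the groups did not overlap at the genes described next except where stated.

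Of 26 jasmonate genes, 3 were higher (JAZ10, JAZ6 and AOC3, 11.5% against 3.4% of all genes) and 0 were lower (against 6.09%). The list's median log2 fold change was 0.20, against 0.03 for all genes, 0.21 for MYB factors and 0.22 for cyclins. Summed over the list, the groups overlapped, with 939 to 1248 CPM at 16 h and 966 to 977 CPM in uncut roots. JAZ10, a repressor of jasmonate signalling that jasmonate itself induces, had 25.6, 32.2 and 24.5 CPM at 16 h, against 8.6, 7.15 and 9.68 CPM in uncut roots (log2 fold change 1.71 ± 0.23, edgeR adjusted p = 0.00141). JAZ6, of the same repressor family, had 10.7, 17.2 and 4.19 CPM at 16 h, against 3.53, 3.45 and 4.13 CPM in uncut roots (edgeR adjusted p = 0.0328). AOC3, an allene oxide cyclase of jasmonate synthesis, had 39.8, 56.0 and 44.7 CPM at 16 h, against 26.4, 28.6 and 32.1 CPM in uncut roots. JAZ10 was clearly raised in each library, whereas JAZ6 in 16 h replicate 3 was close to the uncut libraries. JAZ6 did not pass when 16 h replicate 2 was left out (log2 fold change 1.1, edgeR adjusted p = 0.11). Of 21 ethylene genes 1 was higher (4.76%, against 3.4% of all genes) and 0 were lower (against 6.09%). The higher one was ACS8, which makes the ethylene precursor: 58.3, 78.5 and 53.8 CPM at 16 h, against 42.0, 38.4 and 37.6 CPM in uncut roots.

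Of 23 wound and regeneration factors, 3 were higher (13.0%, against 3.4% of all genes) and 1 lower (4.35%, against 6.09%). Their median log2 fold change was 0.16. XTH19, a cell wall xyloglucan enzyme of graft and wound healing, had 34.5, 43.7 and 26.6 CPM at 16 h, against 16.3, 17.5 and 18.4 CPM in uncut roots (log2 fold change 1.03 ± 0.20, edgeR adjusted p = 0.0132). NAC071, a transcription factor of tissue reunion, had 3.57, 20.7 and 11.9 CPM at 16 h, against 3.87, 3.16 and 3.35 CPM in uncut roots. Its groups overlapped, since 16 h replicate 1 was at the uncut level, and without 16 h replicate 2 its log2 fold change was 1.1 with an adjusted p of 0.13. RRTF1 (ERF109), a jasmonate-induced factor that raises auxin synthesis, also overlapped, with 52.3, 67.5 and 25.9 CPM at 16 h, against 24.6, 25 and 27.7 CPM in uncut roots. RRTF1 likewise did not pass with 16 h replicate 2 left out, where it came to 0.63 on the log2 scale, against 0.95 with it (edgeR adjusted p = 0.0765 without it). LBD18, an auxin-induced factor of lateral root formation, was the lower one (log2 fold change -0.57). The 16 h replicate 2 was the highest of the 16 h libraries at 19 of the 23 genes (82.6%), against 35.8% of all genes, and the part of this in the result was not tested.

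Early stress and defence genes moved both ways. Of 30 tested, 3 were higher (10%, against 3.4% of all genes) and 2 lower (6.67%, against 6.09%). Their median log2 fold change was 0.24. PROPEP3, the precursor of a wound-released danger peptide, had 19.6, 26.0 and 39.1 CPM at 16 h, against 11.8, 12.3 and 14.3 CPM in uncut roots (log2 fold change 1.13 ± 0.25, edgeR adjusted p = 0.0222). ERF5, a stress-induced ethylene response factor, had 32.7, 58.7 and 44.7 CPM at 16 h, against 25.4, 23.5 and 25.5 CPM in uncut roots. WRKY18, a pathogen-induced transcription factor, had 33.9, 80.3 and 18.9 CPM at 16 h, against 17.2, 17.0 and 15.2 CPM in uncut roots. It rested most on 16 h replicate 2, without which its log2 fold change was 0.70 (edgeR adjusted p = 0.065). The lower ones were salicylate-responsive: PR5 (log2 fold change -0.79) and PR1 (-0.64).

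Auxin genes gave few calls, as did all genes (3.4% higher and 6.09% lower). Of 31 genes of synthesis and transport 1 was higher (3.23%) and 0 were lower. The higher one was PID, the kinase that directs the polar placement of PIN auxin exporters: 82.6, 152 and 76.9 CPM at 16 h, against 52.2, 45.7 and 51.6 CPM in uncut roots (log2 fold change 1.08 ± 0.24, edgeR adjusted p = 0.0202). The 16 h replicate 2 was far above the other 16 h libraries, and without it the log2 fold change of PID was 0.68 (edgeR adjusted p = 0.00545). Of 44 response genes 2 were higher (4.55%) and 1 lower (2.27%), all of them Aux/IAA genes, which encode repressors of auxin response factors. IAA30 had 38.6, 45.9 and 46.1 CPM at 16 h, against 26.7, 28.1 and 27.7 CPM in uncut roots, and IAA2 had a log2 fold change of 0.74. IAA13 changed most, in the other direction, with 2.38, 3.09 and 4.89 CPM at 16 h, against 18.0, 12.3 and 13.9 CPM in uncut roots (log2 fold change -2.13 ± 0.36, edgeR adjusted p = 0.00614). At these 4 genes all libraries at 16 h lay on one side of all uncut libraries.

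Of 36 cytokinin genes 3 were higher (ARR7, RR3 and IPT7, 8.33% against 3.4% of all genes) and 1 lower (IPT3, 2.78% against 6.09%). ARR7, a type-A response regulator that dampens cytokinin signalling, had 22.0, 15.4 and 18.2 CPM at 16 h, against 6.89, 6.32 and 6.65 CPM in uncut roots (log2 fold change 1.47 ± 0.25, edgeR adjusted p = 0.00544). RR3, of the same type, had a log2 fold change of 0.85. Of the isopentenyltransferases that start cytokinin synthesis, IPT7 was higher (0.56) and IPT3 was lower, with 31.5, 35.7 and 32.8 CPM at 16 h, against 54.0, 51.6 and 49.3 CPM in uncut roots (log2 fold change -0.62 ± 0.15, edgeR adjusted p = 0.0271).

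Of 25 abscisic acid genes, 2 were higher and 2 lower (8% each, against 3.4% and 6.09% of all genes). ABI5, a transcription factor of abscisic acid responses in seeds, was lower, with 49.3, 43.7 and 41.9 CPM at 16 h, against 82.5, 85.7 and 88.0 CPM in uncut roots (log2 fold change -0.92 ± 0.14, edgeR adjusted p = 0.00345). Its level was alike within each group. The receptor PYL2 was lower as well (-0.72), while the phosphatase ABI2 (0.52) and the synthesis enzyme NCED9 (0.66) were higher. NCED9 missed the threshold with 16 h replicate 2 left out, at 0.44 on the log2 scale (edgeR adjusted p = 0.0508). GA3OX2 (-0.74), an enzyme that makes active gibberellin, was the 1 lower gene of 18 gibberellin genes (5.56%, against 6.09% of all genes). BIN2 (0.82), a kinase that blocks brassinosteroid signalling, was the 1 higher gene of 14 brassinosteroid genes (7.14%, against 3.4% of all genes).

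Of 57 cell cycle genes, 4 were higher (7.02%, against 3.4% of all genes) and 0 lower (against 6.09%). The list's median log2 fold change was 0.19. Its summed CPM overlapped between the groups, with 1537 to 1817 at 16 h and 1527 to 1551 in uncut roots. None of the 4 kept the call without uncut replicate 1 or 2. ICK1, an inhibitor of cyclin-dependent kinases, had 40.4, 49.9 and 43.3 CPM at 16 h, against 21.2, 19.7 and 24.9 CPM in uncut roots (log2 fold change 1.03 ± 0.17, edgeR adjusted p = 0.00539). CYCB2;1, a mitotic cyclin, had 17.8, 21.2 and 13.3 CPM at 16 h, against 7.23, 8.19 and 7.89 CPM in uncut roots. The B-type cyclin CYC1BAT (0.94) and CCS52A2 (1.32), an activator of the complex that degrades mitotic cyclins, were the others. The list's name does not hold for all of them, since ICK1 and CCS52A2 are known to slow or end mitotic cycling. Of 39 chromatin regulators 0 were higher and 3 lower (7.69%, against 6.09% of all genes), and none of the 3 kept the call without an uncut library: REF6, a histone H3 lysine demethylase, with 35.7, 35.7 and 44.7 CPM at 16 h, against 66.7, 63.2 and 66.9 CPM in uncut roots; the remodelling ATPase BRM (-0.88); and the histone demethylase LDL1 (-0.67).

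Lists of cell identity genes gave few calls, as did all genes (3.4% higher and 6.09% lower). None of 9 root cap and columella genes passed. Of 12 stem cell niche genes 1 was higher (8.33%): JKD, a zinc finger factor of the ground tissue and niche (0.75). Among 34 vascular genes 1 was higher (2.94%). That 1 was ANT, a factor of cell proliferation in the cambium, with 48.7, 36.2 and 40.5 CPM at 16 h, against 22.2, 23.2 and 24.8 CPM in uncut roots (log2 fold change 0.83 ± 0.17, edgeR adjusted p = 0.0144). Of 17 endodermis and cortex genes 2 were lower (11.8%, against 6.09% of all genes). They were ESB1, needed for the Casparian strip (-0.97), and KCS20, which elongates fatty acids for suberin (-1.0). Of 22 epidermis and root hair genes 1 was lower (4.55%, against 6.09% of all genes), GL2, which sets non-hair fate (-0.67). Of 21 photosynthesis genes 3 were lower (14.3%, against 6.09% of all genes). They were CAB2, LHCB6 and LHCA2 of the light-harvesting complexes, and the list's median log2 fold change was -0.37. CAB2 had 20.8, 11 and 18.9 CPM at 16 h, against 33.9, 34.9 and 33.6 CPM in uncut roots. The GFP sort can set which cell types enter the 16 h libraries, and its part in these values cannot be told apart.

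**Figure D3:**
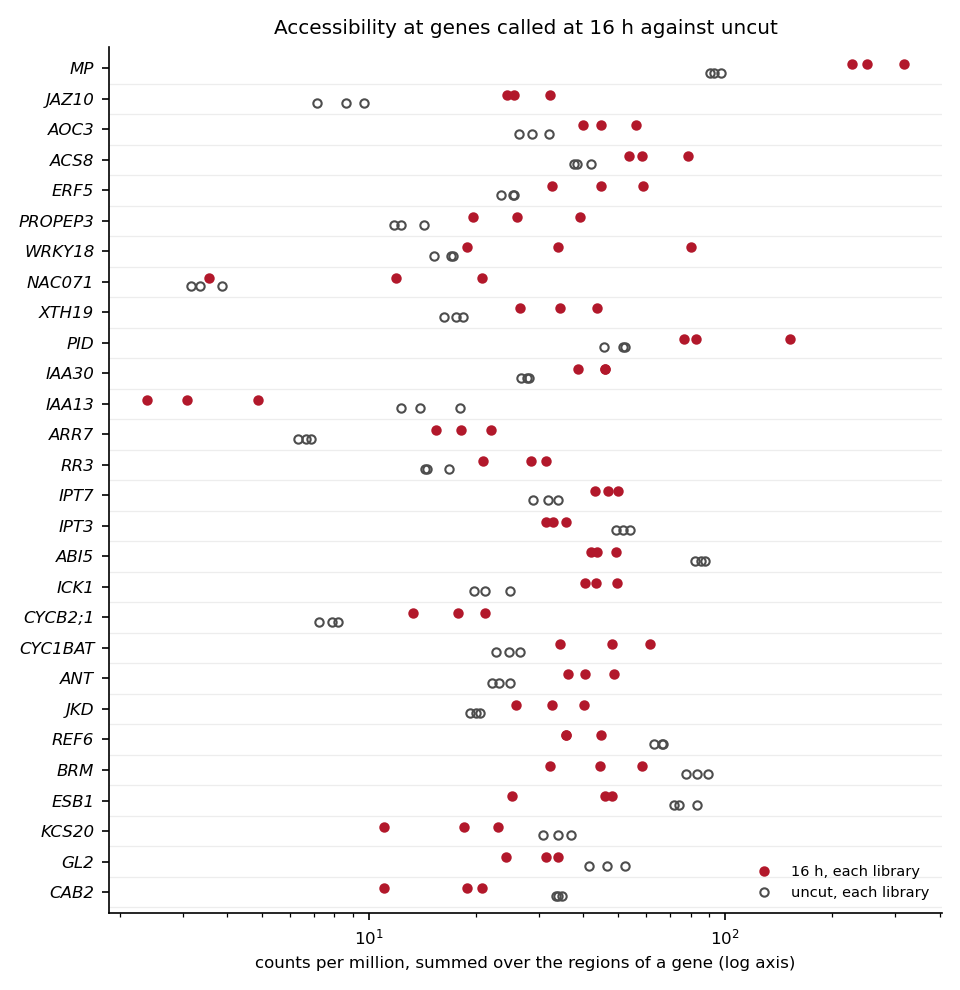
Accessibility in CPM, summed over the regions of a gene (log axis), in each library, filled for 16 h and open for uncut, at genes from MP at the top to CAB2 at the bottom. The 3 libraries at 16 h spread more than the uncut ones at NAC071 and WRKY18, and lie close together at ABI5 and ICK1.

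Of 56 gene families with 7170 tested members, 257 were higher (3.58%, against 3.4% of all genes) and 432 lower (6.03%, against 6.09%). Immune receptors of the NBS-LRR type had the highest share of lower members among families of 100 or more: of 152, 11 were higher (7.24%) and 24 lower (15.8%). Its count on chromosomes 3 and 5 was 5 higher (6.76%) and 1 lower (1.35%) of 74, where all genes gave 3.36% and 3.23%. AT1G62630, a higher member, had 137, 138 and 133 CPM at 16 h, against 26.1, 30.1 and 27.4 CPM in uncut roots (log2 fold change 2.29). Receptors of this family stand in clusters of near-identical copies, so reads may be split between them and these values are uncertain. F-box genes gave 28 higher (4.58%) and 31 lower (5.07%) of 612, and on chromosomes 3 and 5 12 higher (4.08%) and 2 lower (0.68%) of 294. Transposable element genes gave 4 higher (8.16%) and 11 lower (22.4%) of 49, and 3 and 3 (13.0% each) of 23 on chromosomes 3 and 5. AT2G14000 in this family had 5.35, 7.06 and 8.38 CPM at 16 h, against 221, 187 and 172 CPM in uncut roots, with 20 of its regions lower.

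In cell wall and secondary metabolism families the lower shares stood on both sides of the 6.09% of all genes. Hydroxyproline-rich wall proteins gave 7 higher and 29 lower (11.2%) of 258, with 6 (5.04%) and 9 (7.56%) of 119 on chromosomes 3 and 5. Cytochrome P450 genes gave 1 higher and 17 lower (6.97%) of 244, UDP-glycosyltransferases 0 and 9 (6.98%) of 129, pectin-modifying enzymes 4 and 13 (5.35%) of 243, glycosyl hydrolases 3 and 12 (7.5%) of 160, and xyloglucan-modifying enzymes 3 and 2 (6.06%) of 33. The P450 count on chromosomes 3 and 5 was 1 higher and 2 lower of 113, and that of glycosyl hydrolases 1 and 6 of 77. Among wall enzymes, EXPA17, an expansin of lateral root emergence, had 10.1, 15 and 13.3 CPM at 16 h, against 37.9, 36.5 and 31.1 CPM in uncut roots. TCH4, a touch-induced xyloglucan enzyme on chromosome 5, was higher, with 23.2, 28.2 and 19.6 CPM at 16 h, against 8.74, 9.69 and 9.08 CPM in uncut roots (log2 fold change 1.39 ± 0.22, edgeR adjusted p = 0.00431). XTH4 of the same family was lower (-1.29), but not in regions within 1 kb of its start (0.26).

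Transcription factor families went both ways, against 3.4% higher and 6.09% lower of all genes. MYB factors gave 8 higher (4.65%) and 3 lower (1.74%) of 172 and NAC factors 6 (5.94%) and 2 (1.98%) of 101. In the other direction, C2H2 zinc finger factors gave 2 higher (2.22%) and 9 lower (10%) of 90. Lower shares near that of all genes were found in bHLH factors, with 3 higher (2.52%) and 7 lower (5.88%) of 119. The same held for bZIP factors, 3 (4.84%) and 4 (6.45%) of 62, and GRAS factors, 0 and 2 (6.25%) of 32. Heat shock proteins and chaperones gave 11 higher (5.73%) and 6 lower (3.12%) of 192, calcium-binding proteins 9 (6.25%) and 6 (4.17%) of 144, and ribosomal proteins 18 (4.99%) and 16 (4.43%) of 361. On chromosomes 3 and 5, all genes gave 3.36% higher and 3.23% lower. Counts there were 3 (3.19%) and 0 of 94 for MYB factors and 2 (3.85%) and 0 of 52 for NAC factors. Ribosomal proteins gave 12 (6.56%) and 4 (2.19%) of 183 there. Pentatricopeptide repeat proteins, which edit and process organelle RNA, gave 22 and 22 (4.37% each) of 503, with 15 (6.98%) and 7 (3.26%) of 215 on chromosomes 3 and 5. MYB79 had 33.9, 40.1 and 36.3 CPM at 16 h, against 19.1, 14.3 and 15.5 CPM in uncut roots. The stress-induced NAC factor ATAF1 moved the other way, with 5.35, 7.94 and 8.38 CPM at 16 h, against 26.8, 29.1 and 23.3 CPM in uncut roots (log2 fold change -1.87 ± 0.25, edgeR adjusted p = 0.00147). Of 69 WRKY factors 2 were higher and 2 lower (2.9% each), among them WRKY75, of phosphate starvation and senescence (1.12), and WRKY41, of seed dormancy and defence (-1.61). HSFA8, a heat shock factor, was higher (1.1).

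**Figure D4:**
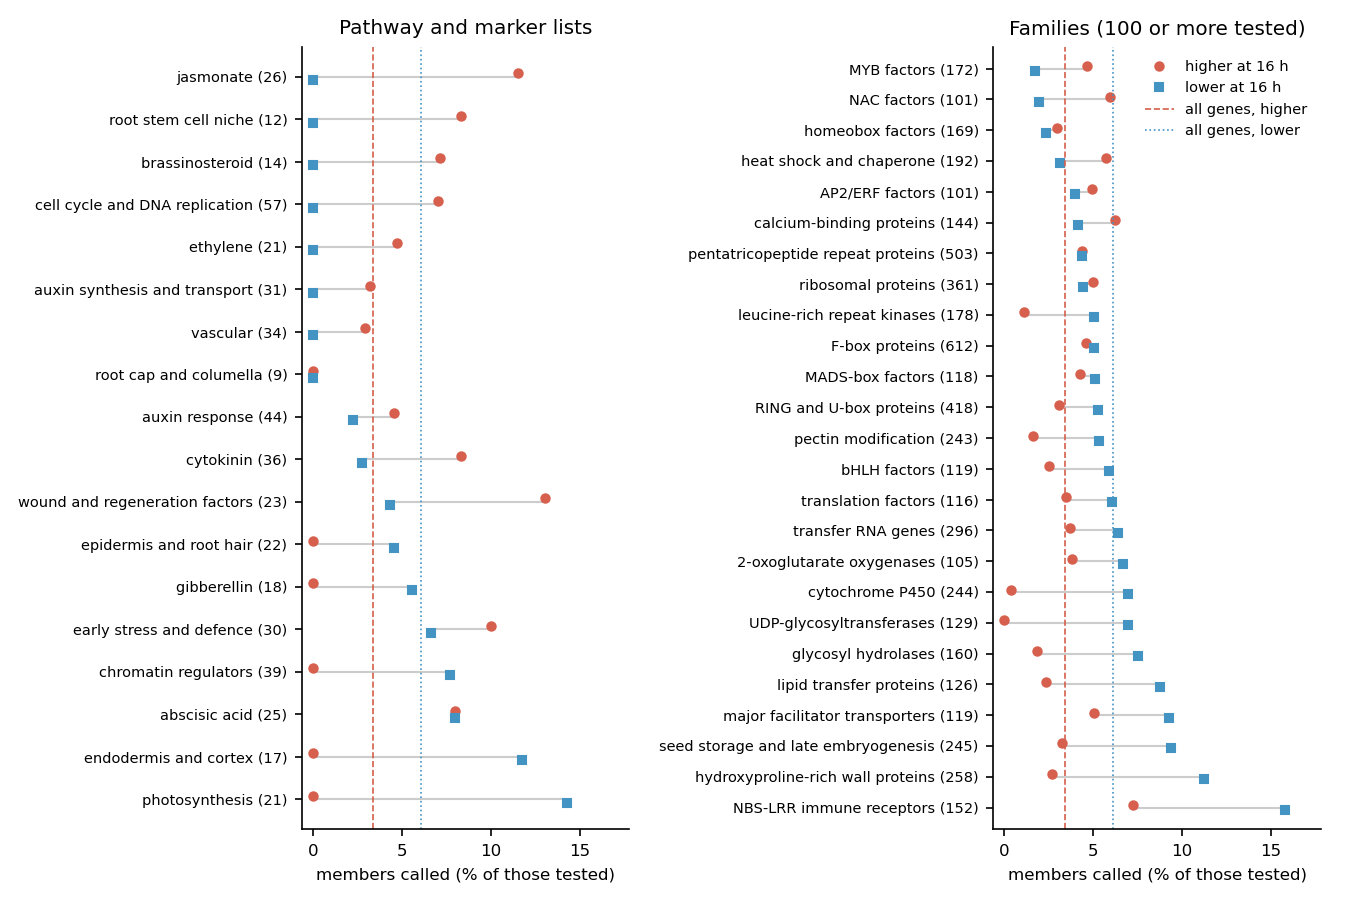
Share of tested members that were higher (circles) or lower (squares) at 16 h than in uncut roots, in percent, for 18 lists (left) and for families of 100 or more tested genes (right), with the number tested in brackets. Vertical lines mark all genes, 3.4% higher and 6.09% lower; NBS-LRR immune receptors lie farthest right among lower shares of families.

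Between 16 h and 14 h, both from sorted cells of the MP::MP-GFP line after excision, almost nothing was called: of 28171 genes, 2 were higher at 16 h (0.0071%), 0 were lower (0.0%), and 1241 had an unadjusted p under 0.05 (edgeR). TWN2, a valyl-tRNA synthetase needed in the embryo, had 237, 112 and 300 CPM at 16 h, against 93.8, 75.3 and 71.4 CPM at 14 h (log2 fold change 1.42, edgeR adjusted p = 0.0398). The second, AT2G41835, rested on 1 library, with 827, 23.3 and 41.6 CPM at 16 h, against 27.6, 29.2 and 31.0 CPM at 14 h. The comparison used only regions counted at both times. How large a change it could detect was not tested, so the few calls do not show that both times were alike.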

How the data were processed

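The authors' deposited tables hold whole-number read counts of ATAC-seq fragments per region for each library, and the submitters' processing notes name the TAIR10 build and, without versions or order, HOMER, DESeq2, MACS2, SAMtools and Bowtie2. How regions were merged was not given in the sources used here, and neither were caller settings. The authors' deposited sheets also hold log2 fold changes, p-values and HOMER annotation. The gene columns of the 16 h sheet are out of step with its regions (33.7% match the other sheets), so genes came by position from the 2.5 h and 14 h sheets: 101924 regions directly, 5135 by overlap and 628 from within 500 bp, while 155 stayed without annotation. In these sheets 18 columns of per-sample values were not used. Names were matched to the RefSeq table. Where several loci shared a name, its coordinates gave the locus nearest to the region. Its coordinates also gave the RefSeq neighbour of a named region.

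Counts were tested per region and summed per gene (28936 genes) with edgeR 4.0.16 in R 4.3.3: TMM factors, a filter at a minimum count of 10, the quasi-likelihood test with 16 h and uncut libraries only, and Benjamini-Hochberg adjustment over all features tested at a threshold of 0.05. An SE is the log2 fold change divided by the square root of F, and CPM use TMM-scaled library sizes unless stated. A gene or region without a read at 16 h is given as a bound against 3 counts over the 3 libraries. Members, gene lists and tests were chosen with earlier results of these data known. Genes named are MP, the 8 with the largest change in each direction over all chromosomes and on chromosomes 3 and 5 (called, above the median level, groups apart), and called members of each list (up to 3 per direction by smallest p) and family (1 per direction). CCS52A2, U6-29 and the runs of regions lie outside that rule and were chosen after their values were seen. Replicates of a group were not duplicates of each other by a chi-square test of their counts. The scripts were checked on made-up counts with known changes. For genes, 45% of 2-fold and 88% of 4-fold changes were called, and for regions 1% and 36%. A gene or region that was not called can therefore still have changed.

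Alternatives were DESeq2 1.42.0, limma 3.58.1 (voom with sample weights), other scalings, no filter, uncut libraries thinned to the 16 h depth, a replicate block, a test against a log2 fold change of 0.5, regions within 1 kb of a start, chromosomes 3 and 5 alone, and each library left out. The comparison of 16 h with 14 h was added after seeing the data. No genome sequence was used here.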

Additional observations from a re-analysis of the deposited data

How the results depend on the processing

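The number of features called moved widely with the test, the depth and the libraries in the fit. Regions higher, 3310 with edgeR, were 8181 with DESeq2, 1095 with weighted voom, 857 with uncut libraries thinned and 766 to 5710 with 1 library left out, and regions lower, 7100, were 2435 thinned and 2543 to 8729 with 1 left out. On chromosomes 3 and 5, 1355 higher regions became 3543 (DESeq2), 423 (voom), 330 (thinned), 595 (fitted alone) and 296 to 2402 (1 left out), and 1206 lower regions became 2559, 571, 331, 521 and 113 to 1938. Genes higher, 983, were 2662 with DESeq2, 145 against a log2 fold change of 0.5, 322 thinned and 89 to 1995 with 1 left out. Genes lower, 1762, were 2967, 695, 1070 and 573 to 2831. On chromosomes 3 and 5, 413 higher genes became 1182, 54, 123 and 34 to 888, with 209 when fitted alone, and 397 lower genes became 862, 53, 180 and 44 to 821. The cause of these shifts was not tested. Leaving out 1 uncut library lowered each of these counts, and leaving out 1 library at 16 h raised each of them. Other scalings, no filter and, for genes, weighted voom kept the all-chromosome counts within 1.5 times. The authors' deposited table lists 8181 higher and 10614 lower regions, the same numbers as DESeq2 run here, and holds 99.5% of the regions called by edgeR.

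Of 158 named genes, 72 passed in every fit with 1 library left out. In regions within 1 kb of a start 3 changed sign: GSTF2 (0.022), XTH4 (0.26) and AT1G43770 (0.36).

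No pairing by replicate number was seen: correlations of deviations between same-numbered libraries were -0.0289 to -0.0163. Counting error in the 16 h libraries can hide a pairing, so this check cannot exclude one. With the replicate block, 952 regions were higher and 4551 lower, and 384 genes were higher; on chromosomes 3 and 5 it gave 350 and 454 regions and 147 higher genes.

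Limits: a 16 h library with 1437740 to 2350249 reads cannot resolve regions under about 1.32 to 1.98 CPM. Line, preparation as protoplasts or nuclei, sort, nuclei number and excision cannot be told apart.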

Other observations

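Of 149 tested regions to which the sheets gave no annotation, 137 were higher at 16 h (91.9%, against 3.07% of all regions). Such regions lie more than 500 bp from every region of the 2.5 h and 14 h sheets. This selection favours regions that are high only at 16 h, so the share is not a result about them. A run of 8 consecutive higher regions without an assigned gene lay from 11728809 to 11731793 on chromosome 5, with median levels of 101 CPM at 16 h and 42.2 CPM in uncut roots. Further runs of 8 higher regions lay from 9576698 to 9583827 on chromosome 1, and from 1344158 to 1346949 and 3942581 to 3950914 on chromosome 4. These were chosen after their values were seen.

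AT1G47695, an F-box gene on chromosome 1, was barely detected in uncut roots: it had 11.3, 11.5 and 13.3 CPM at 16 h, against 0.101, 0.0416 and 0.0459 CPM in uncut roots (log2 fold change 7.31 ± 0.45, edgeR adjusted p = 1.01e-05). AT3G45935, a tRNA gene on chromosome 3, had 9.51, 8.38 and 4.19 CPM at 16 h, against 0.134, 0.0416 and 0.183 CPM in uncut roots. Of 296 transfer RNA genes, 11 were higher (3.72%, against 3.4% of all genes) and 19 lower (6.42%, against 6.09%). Self-incompatibility related genes gave 5 higher (11.4%, against 3.4% of all genes) and 0 lower (against 6.09%) of 44. AT5G38440, among the higher ones, had 16.6, 26.9 and 25.2 CPM at 16 h and 7.46, 8.98 and 9.77 CPM in uncut roots. Of 40 cysteine-rich receptor kinases 0 were higher and 5 lower (12.5%, against 6.09% of all genes). CRK10 had 14.3, 15 and 4.89 CPM at 16 h, against 44.6, 42.5 and 43.3 CPM in uncut roots. The calcium-dependent kinases split: CPK6 was higher (log2 fold change 0.81) and CPK23, on chromosome 4, lower (-2.58). G3Pp5, of the major facilitator transporters, had 67.2, 78.1 and 79.7 CPM at 16 h, against 390, 314 and 301 CPM in uncut roots, with 21 of its regions lower.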
